A study of Drosophila melanogaster with 34 samples.

Results

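The oldest *scrib* mutant tumors of the series were compared with the youngest. RNA-seq values of 4 libraries of wing imaginal disc tumors at 14 days after egg laying (AEL) were set against those of 4 libraries at 4 days AEL, which made 8 of the 34 libraries of the series. Both groups were homozygous for the *scrib1* allele on an *FRT82B* chromosome from a stock kept over the TM6B balancer and were raised at 25 degrees, and the labels name no transgene or drug. By the labels they differed in age, and the libraries were chosen by these labels and not by any measured value. The control discs (*FRT82B*, 4 days AEL with n = 3 and 5 days AEL with n = 4) and the tumors at 5, 6, 8, 10 and 12 days AEL are used here only where named. The sex of the larvae and the number of discs per library are not given in the sources used here.

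Scribble (Scrib) is a scaffold protein of the basolateral membrane of epithelial cells. With Discs large and Lethal (2) giant larvae it sets the border between the apical and the basolateral side. Wing discs of larvae that lack *scrib* lose their single-layered epithelium and grow into multilayered masses, while the larvae fail to pupate on time and go on living as larvae, so that the same tissue can be sampled for days. JNK signaling, JAK/STAT signaling and the EGFR/ERK cascade have long been studied in such tumors.

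The values are read counts relative to library depth (counts per 1e6 reads, CPM) after a scaling of each library, and differences were tested with limma on log2(CPM + 1) in a single fit of all 34 libraries, with a call at an adjusted p under 0.05. A log2 fold change given here is the 14-day minus the 4-day mean on that scale, which understates the change of genes with low values. The 4-day libraries held 18519951 to 21928107 reads on genes and the 14-day libraries 19450463 to 20720593. The limit of detection was set at 3 reads, which corresponded to 0.138 to 0.164 CPM and covers counting error only. Pearson correlations across the tested genes were 0.988 to 0.995 between 4-day libraries, 0.994 to 0.996 between 14-day libraries and 0.922 to 0.944 between libraries of different age, where genes are not independent replicates. Squared differences between replicates averaged 5.78 to 28.1 times the variance of read sampling at 4 days and 8.57 to 28.5 times at 14 days, so that no library appeared to be a copy of another.

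Markers of other tissues differed between the ages and are given here before the results they touch. The 35 listed gut genes (digestive serine proteases of the *Jon* and *Try* families, lysozymes and amylases) summed to 421 to 2338 CPM in the 4-day libraries and to 5.75 to 15.8 CPM in the 14-day libraries. Replicate 4 of the 4-day tumors, with the 421 CPM, stood apart from the other 3, which lay at 1597 CPM or more. It was also nearer to the 14-day tumors, with correlations of 0.942 to 0.944 against at most 0.930 for the other 3. Fat body genes summed to 274 to 660 CPM at 4 days and 3.241 to 107 CPM at 14 days, hemocyte genes to 389 to 591 and 156.3 to 189 CPM, and differentiated muscle genes to 1465 to 1720 and 503 to 681 CPM. Control discs of 4 days also held gut and fat body transcripts, unevenly, with sums of 58.7 to 2846 CPM and 657 to 4324 CPM. Their hemocyte sums (90.9 to 141 CPM) and muscle sums (427 to 657 CPM) lay under those of the 4-day tumors. None of 5 salivary gland genes was called, although *Sgs8* was called higher by edgeR and DESeq2 and, in limma, with a pseudocount of 0.1 or with the 27 tumor libraries alone, and their sum was at most 0.572 CPM in each of the 8 libraries. Adult muscle precursor genes, which mark the myoblasts that lie on the notum of the wing disc, summed to 143 to 171 CPM at 4 days and 193 to 248 CPM at 14 days, with 4 of 6 higher (66.7%) and 1, *Him*, lower (16.7%, median log2 fold change 0.48). *Him* was no longer called when replicate 1 or 4 of the 14-day or replicate 2 or 3 of the 4-day tumors was left out (adjusted p = 0.06 to 0.14). Of 5 tracheal genes 2 were higher (40%, median 0.19), and of 9 genes of neurons and glia 2 were higher (22.2%) and 3 lower (33.3%, median -0.39). Among all tested genes 35.2% were higher and 39.7% lower. In bulk RNA, fewer cells of a type and less RNA per cell cannot be told apart.

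**Figure D1:**
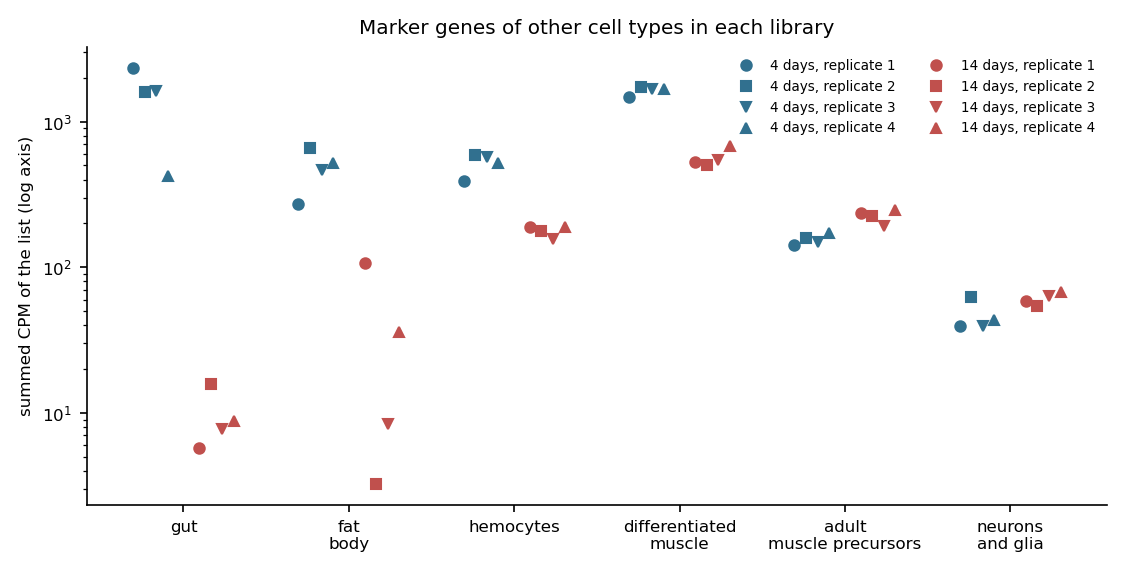
Summed CPM (log axis) of marker genes of other cell types in each of the 8 libraries, blue for 4 days and red for 14 days, with a symbol per replicate number. Gut genes lie between 421 and 2338 CPM at 4 days and between 5.75 and 15.8 CPM at 14 days, and the lowest 4-day point is replicate 4.

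Over the genome most genes differed between the ends of the tumor series. Of 9637 tested genes, 3396 were higher at 14 days (35.2%) and 3824 were lower (39.7%), so that 74.9% were called in one direction or the other, by limma. In 66.3% of the tested genes the 4 libraries of one age did not overlap the 4 of the other. Many of these differences were small, since 2855 called genes changed by less than 0.5 on the log2 scale and the median absolute change of called genes was 0.60. A change of at least 2-fold was seen for 870 genes that rose and 938 that fell, and one of at least 8-fold for 111 and 86 genes. When the test asked for a change beyond 2-fold, 543 genes were higher (5.63%) and 468 lower (4.86%). The median log2 fold change of all tested genes was -0.03, so the values were centred near no change. Without replicate 4 of the 4-day tumors, 3371 genes were higher and 3782 lower.

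**Figure D2:**
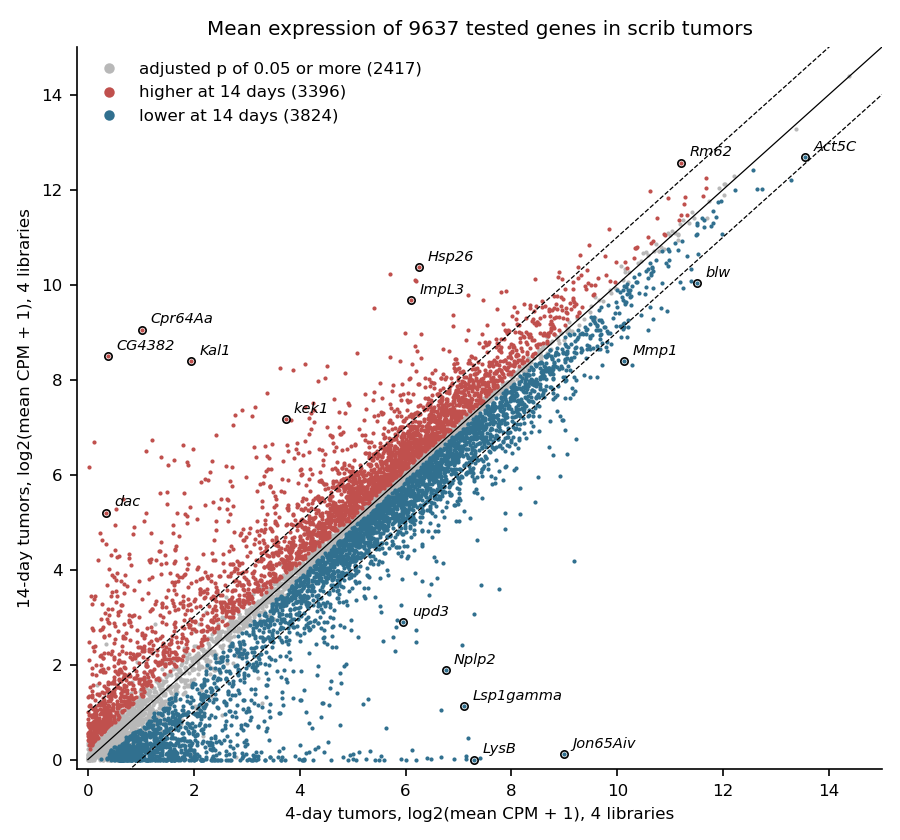
Mean expression of each of the 9637 tested genes at 4 days (horizontal) and 14 days (vertical), as log2(mean CPM + 1) over 4 libraries each, with 3396 genes that rose in red, 3824 that fell in blue and the others in grey. The solid line marks equal values and the dashed lines a 2-fold difference, and the circled genes are among those described by name.

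*CG4382* rose most, and 3 cuticle genes were among the 12 largest rises. The 12 largest rises and the 12 largest falls were picked from called genes whose libraries do not overlap. Lack of overlap was thus part of their choice and is no further result. *CG4382*, a gene on chromosome 2L from 9598880 to 9600872 of BDGP6, was at 0.813, 0.108, 0.0923 and 0.164 CPM in the 4-day libraries and at 281, 386, 428 and 342 CPM in the 14-day libraries. All 4 of the old tumors lay far above all 4 of the young ones, with a log2 fold change of 8.14 (SE 0.19, adjusted p = 1.2e-24). *Cpr64Aa*, which encodes a chitin-binding cuticle protein, was at 1.0168, 0.647, 1.11 and 1.31 CPM and then at 421, 697, 637 and 363 CPM (log2 fold change 7.99, SE 0.29). The nearby *Cpr64Ac* had 0.102, 0.0539, 0.0461 and 0.109 CPM at 4 days, at most 3 reads in each library, and 135, 64.0, 165 and 41.9 CPM at 14 days. Its 14-day libraries thus spread over more than a 3-fold range, yet none came near the 4-day values. Both cuticle genes lie on chromosome 3L, from 4207838 to 4209178 and from 4211964 to 4212915, inside the span of *CG43367* on the opposite strand. Counting did not use strand, and overlap was read here from gene start and end, not from exons. Whether the genes affect each other's counts is therefore not known. *CG43367* itself fell from 72.9 ± 2.07 to 54.2 ± 3.85 CPM (SD, n = 4 each). The same limit holds for *Kal1* (with *Slimp*), *LysB* (with *mwh*), *Mmp1* (with *Pof*), *Timp* (with *Syn*), *crq* (with *ex*) and *roX1* (with *ec*), among other named genes whose spans overlap that of a neighbor. *Cpr66D*, another cuticle protein gene, rose from a mean of 1.62 ± 2.99 to 81.9 ± 8.95 CPM (SD, n = 4 each), and its 4-day mean rested on replicate 1 with 6.10 CPM.

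*Kal1*, the fly counterpart of the anosmin gene that is mutated in Kallmann syndrome, was at 3.41, 3.29, 2.40 and 2.35 CPM in the young tumors and at 367, 257, 347 and 371 CPM in the old (log2 fold change 6.44, SE 0.11, adjusted p = 2e-27). The 12 also held 2 transcription factor genes of leg and antenna patterning. *dac* (*dachshund*) rose from 0.254, 0.485, 0.0461 and 0.273 CPM to 34.8, 29.4, 41.3 and 37.2 CPM (log2 fold change 4.86, SE 0.21), and *ss* (*spineless*) from 0.508, 0.701, 0.507 and 0.656 CPM to 44.2, 36.4, 46.3 and 48.8 CPM (log2 fold change 4.81, SE 0.13). For both, the groups lay far apart and the spread inside each age was small. *CG33993*, which the annotation names *Egfrap*, rose from 2.49 ± 0.321 to 96.9 ± 15.8 CPM and the long noncoding RNA *CR32111* from 1.33 ± 0.242 to 104 ± 21.5 CPM (SD, n = 4 each). The remaining genes among the 12 largest rises were *CG13053* (log2 fold change 6.11, 1 read in all at 4 days), *CG12268* (5.39) and *CG14304* (4.73). In control discs, all of these 12 genes but *Cpr64Ac* had a mean over 5 CPM at both 4 and 5 days. *Kal1* was at 75.5 CPM in control discs of 4 days and 119.6 CPM at 5 days, *dac* at 62.3 and 72.005 CPM, *CG4382* at 10.7 and 115 CPM, and *Cpr64Ac* at 0 and 0.319 CPM.

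**Figure D3:**
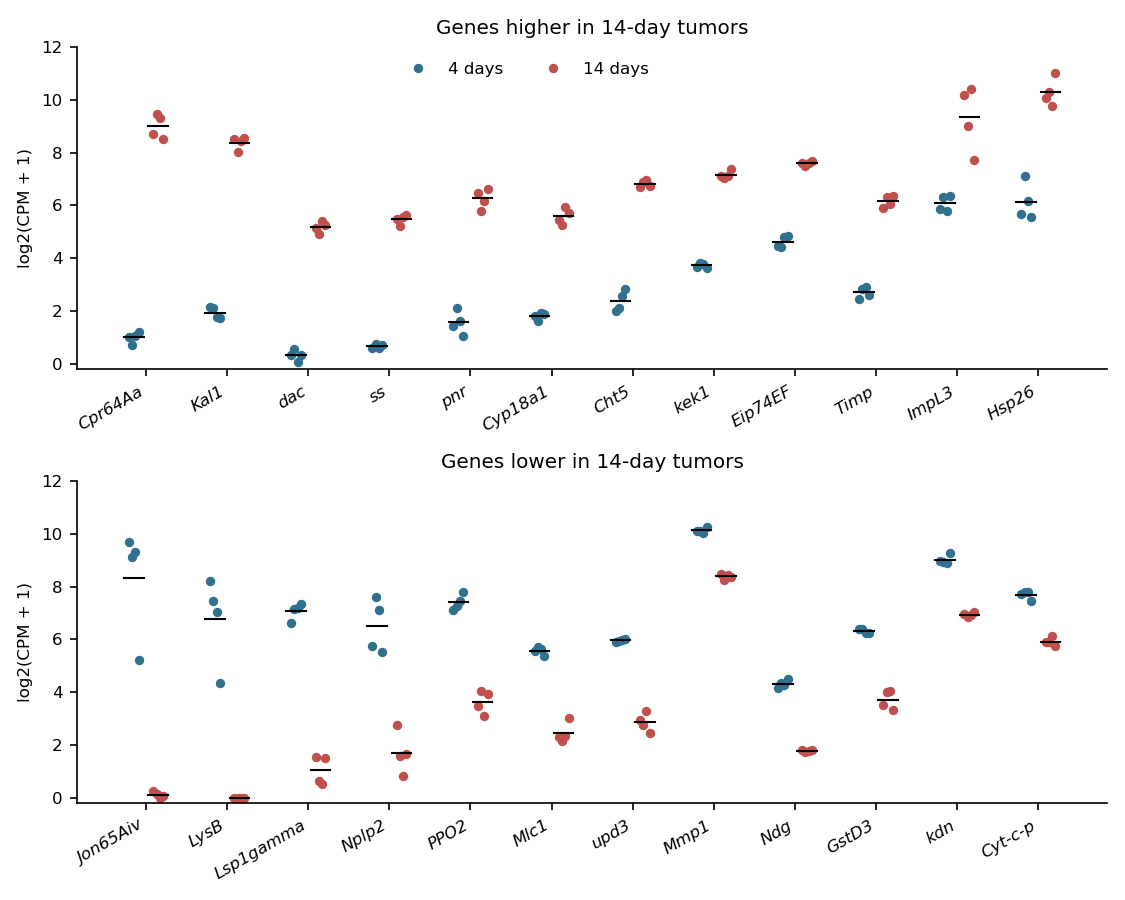
Expression of 12 genes that rose and 12 that fell, as log2(CPM + 1), with a point for each of the 4 libraries of each age (4 days blue, 14 days red) and a bar at the mean of the log values. The points of the 2 ages do not overlap for any of the 24 genes, which was a rule of choice for those among the 12 largest rises or falls. The gut genes *Jon65Aiv* and *LysB* at 4 days and *ImpL3* at 14 days show the widest spread inside an age.

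Genes of digestion led the falls. Of the 12 genes that fell most, *Jon65Aiv*, *Jon25Bi*, *Jon65Aiii* and *Jon25Bii* encode digestive serine proteases, *LysB* and *LysD* lysozymes, *Muc55B* a mucin and *Lsp1gamma* a serum storage protein of the fat body. *Jon65Aiv* was at 825, 555, 627 and 36.2 CPM in the 4-day libraries and at 0.192, 0.0982, 0 and 0.0506 CPM in the 14-day libraries (log2 fold change -8.22, SE 1.48, adjusted p = 1.2e-05). Replicate 4 was the lowest of the young tumors for this gene, as for the summed gut list, and still lay above all the old tumors. *LysB* was at 297, 175, 130.3 and 19.2 CPM at 4 days and had no read in any 14-day library, so that it was at least 1024-fold lower, with 3 reads per library as the floor. *Lsp1gamma* did not follow the gut genes over replicates, with 97.2, 142, 147 and 163 CPM at 4 days and 1.92, 0.540, 0.429 and 1.87 CPM at 14 days (log2 fold change -6.03). Control discs of 4 days had 462 ± 740 CPM of *Jon65Aiv*, 63.1 ± 99.5 CPM of *LysB* (SD, n = 3) and 0 CPM of *Lsp1gamma*. Genes with at most 3 reads in each old tumor but at least 10 CPM in each young one numbered 9, and *betaTry*, *Fst*, *Mur18B*, *CG31789* and *CG32302* were among them with the genes named above. *Nplp4* (from 144 ± 37.5 to 0.379 ± 0.173 CPM, SD, n = 4 each), which encodes a neuropeptide-like precursor, and *CG10910* (log2 fold change -6.27) completed the 12. The reverse pattern, at most 3 reads in each young tumor and at least 10 CPM in each old one, was found for *Cpr64Ac* and *CG13053* only.

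All 25 tested gut markers fell, with a median log2 fold change of -3.21 against -0.03 over all tested genes, although *Jon99Fi* was no longer called without replicate 3 (adjusted p = 0.14) or replicate 4 (adjusted p = 0.084) of the 4-day tumors. Of 7 fat body genes, 4 fell (57.1%, against 39.7% of all tested genes) and none was called higher. Of the other 3, *Fbp1*, which encodes a receptor for storage proteins, and the storage protein gene *Lsp2* had higher values in each old tumor than in any young one. *Fbp1* was at 0.356, 0.270, 0.185 and 0.273 CPM at 4 days and 2.16, 0.442, 1.10 and 13.8 CPM at 14 days (log2 fold change 1.44, adjusted p = 0.22 by limma), and DESeq2 called it higher (4.01, adjusted p = 0.0011). *Lsp2* was at 0.102, 0.0539, 0.231 and 0.109 CPM and 5.51, 0.295, 0.429 and 1.57 CPM (log2 fold change 1.07, adjusted p = 0.22), and edgeR (3.87, adjusted p = 0.029), DESeq2 (3.95, adjusted p = 0.00039) and limma with a pseudocount of 0.1 or with the 8 libraries alone called it higher. Hemocyte genes fell in 6 of 10 cases (60%), led by the crystal cell genes *PPO2* (from 171 ± 36.8 to 11.8 ± 3.65 CPM) and *PPO1* (from 72.5 ± 9.80 to 4.56 ± 1.48 CPM, SD, n = 4 each), which encode prophenoloxidases of the melanization response. *Hml*, a marker of plasmatocytes, fell from 105 ± 51.0 to 33.6 ± 6.32 CPM, whereas *crq*, a scavenger receptor of phagocytes, rose from 42.3 to 50.5 CPM. Muscle genes fell in 9 of 11 cases (81.8%), among them the myosin genes *Mhc* (from 348 to 42.1 CPM) and *Mlc1* (from 46.9 to 4.65 CPM), while *Strn-Mlck* rose from 61.2 ± 5.76 to 206 ± 8.35 CPM. The part that other tissues in the preparations had in these and in the smaller falls was not tested. The *Jon*, *Lys* and *Try* families hold similar copies. How reads that fit more than 1 copy were counted was not examined, so single values of these genes are uncertain.

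The largest gains in mean CPM were those of *Rm62*, an RNA helicase gene, the long noncoding RNA *CR42862*, *verm*, which encodes a chitin-binding deacetylase of the tracheal cuticle, the translation initiation factor gene *eIF-4a*, *Non1*, which encodes a nucleolar GTP-binding protein, and *Hsp26*. *Rm62* was at 2309.7, 2133, 2374 and 2667 CPM at 4 days and at 5623, 7183, 5746 and 5674 CPM at 14 days (log2 fold change 1.35, SE 0.081, adjusted p = 2.7e-15). *CR42862* rose from 1564 ± 125 to 4033 ± 386 CPM (SD, n = 4 each). The largest losses were those of cytoskeletal genes and of genes of translation and respiration. The actin gene *Act5C* was at 11729.7, 11711, 11882 and 12532 CPM at 4 days and 6669.6, 6357, 6642 and 6516 CPM at 14 days (log2 fold change -0.87, SE 0.065), and the groups were well apart. The tubulin genes *alphaTub84B* and *betaTub56D* fell by 1.09 and 0.73 on the log2 scale, the elongation factor gene *EF2* by 0.62, the filamin gene *cher* by 0.92 and *blw*, which encodes the alpha subunit of ATP synthase, by 1.47.

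Most patterning genes of the wing disc rose. Of 33 genes that mark the fields of the disc, 24 were higher (72.7%) and 4 lower (12.1%) at 14 days, with a median log2 fold change of 1.10, against 35.2% higher and 39.7% lower among all tested genes. The shares given with the lists that follow are to be read against these. *pnr* (*pannier*), a GATA factor of the medial notum and the gene of the list that rose most, was at 1.73, 3.40, 2.12 and 1.09 CPM at 4 days and at 88.5, 54.7, 71.2 and 96.8 CPM at 14 days (log2 fold change 4.69, SE 0.19, adjusted p = 2e-19). Its partner gene *ush* (*u-shaped*) rose from 17.2 ± 0.600 to 114 ± 11.4 CPM (SD, n = 4 each). The 3 neighbouring genes of the Iroquois complex, which specify the lateral notum and vein fields, rose together, *ara* from 9.41 ± 0.962 to 209.8 ± 15.6 CPM, *caup* from 21.4 ± 3.85 to 259.7 ± 38.9 CPM and *mirr* from 7.95 ± 0.968 to 169.5 ± 49.5 CPM. *eyg* (*eyegone*), also of the notum, rose from 16.2 ± 3.28 to 103 ± 23.9 CPM. Control discs of 4 days had 31.7 CPM of *pnr*, 103 CPM of *ara*, 146 CPM of *caup* and 121 CPM of *mirr*. The young tumors were thus under the control discs of the same age for all 4 genes in the mean, a difference that was not tested here.

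Genes of the wing pouch and of the compartments went both ways. *nub* (*nubbin*), a POU factor of the pouch, went from 5.95, 4.64, 4.20 and 5.52 CPM to 62.3, 74.9, 76.0 and 71.7 CPM and the groups did not overlap (log2 fold change 3.58, SE 0.16). *Dll* (*Distal-less*) of the wing margin rose from 1.59 to 22.8 CPM, and the Dpp-regulated genes *salr* and *salm* from 68.9 to 322 CPM and from 64.4 to 188 CPM. The selector *vg* (*vestigial*) rose by less, with overlapping libraries and a log2 fold change of 0.56. Posterior compartment genes rose, *hh* by 1.75, *inv* by 1.59 and *en* by 1.08 on the log2 scale. The genes that fell were *wg* (-0.37), *sd* (-0.42), *rho* (-0.39) and *ci* (-0.22), which encode the Wingless ligand, the DNA-binding partner of Vestigial and Yorkie, a protease that releases EGFR ligands, and the transducer of Hedgehog signaling. *wg* was no longer called without replicate 4 of the 4-day tumors (-0.25, adjusted p = 0.053). *ap*, the dorsal selector, was at 243 ± 12.7 CPM at 4 days and 245 ± 26.3 CPM at 14 days and did not pass the test (adjusted p = 0.92).

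**Figure D4:**
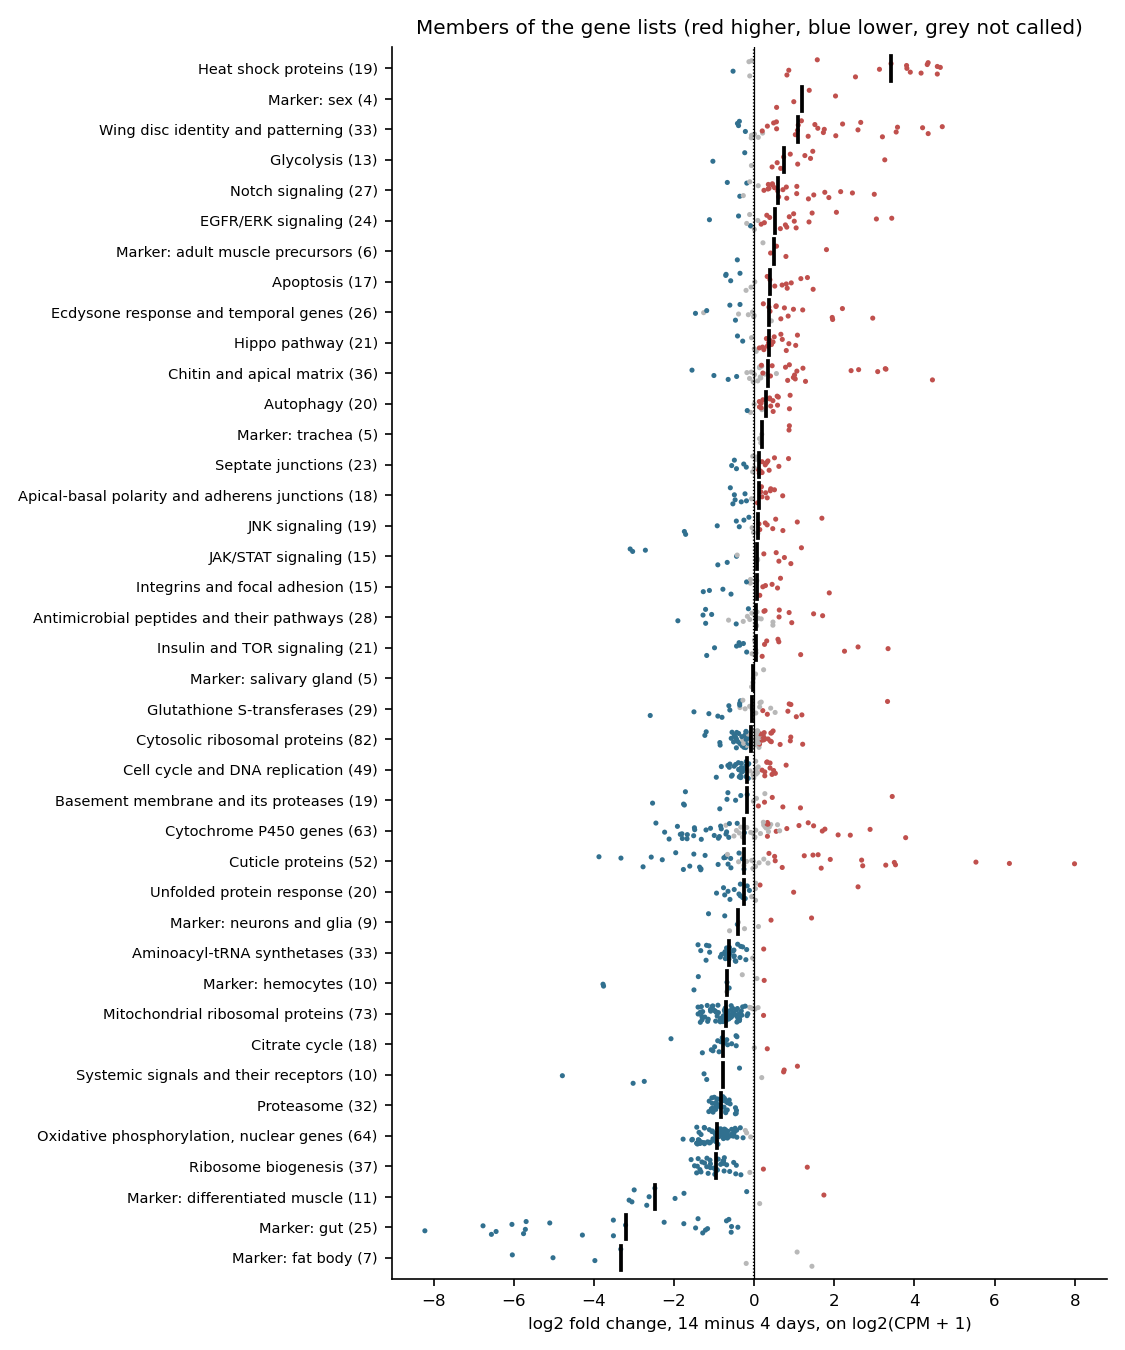
Log2 fold change (14 minus 4 days, log2(CPM + 1) scale) of every tested member of 40 gene lists, with the number of tested members after each name, red for members that rose, blue for members that fell and grey for the others. Thick bars are list medians and the dotted line is the median of all tested genes (-0.03), from 3.42 for heat shock proteins at the top to -3.33 for fat body markers at the bottom.

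Most listed genes of EGFR/ERK signaling rose in the old tumors. Of 24 genes of the pathway, 16 were higher (66.7%, against 35.2% of all genes) and 3 lower (12.5%, against 39.7%), with a median log2 fold change of 0.52. *kek1*, which encodes a transmembrane inhibitor of EGFR and rose most, was at 11.8, 13.3, 12.7 and 11.4 CPM at 4 days and at 139, 130.2, 138 and 165 CPM at 14 days, a gap many times the spread inside either age (log2 fold change 3.43, SE 0.086, adjusted p = 3.7e-24). *edl*, an antagonist of Yan, rose from 1.53 ± 0.326 to 19.9 ± 0.912 CPM, the inhibitor *sty* (*sprouty*) from 88.6 ± 6.36 to 246 ± 43.6 CPM and the secreted antagonist *aos* (*argos*) from 14.487 ± 0.561 to 39.1 ± 3.36 CPM (SD, n = 4 each). Ligand genes rose as well. *vn* (*vein*) was at 20.9, 20.2, 22.1 and 19.1 CPM and then at 106, 63.3, 83.1 and 109 CPM (log2 fold change 2.05, SE 0.15), *spi* (*spitz*) went from 215 to 427 CPM and *Krn* from 8.97 to 19.6 CPM. The receptor gene *Egfr* rose from 317 ± 35.3 to 497 ± 33.1 CPM and the Ets factor gene *pnt* from 33.2 ± 1.66 to 62.4 ± 9.90 CPM. The core of the cascade changed little, with *Raf* at 59.1 and 56.0 CPM, *Dsor1* at 54.3 and 54.5 CPM (neither called), and *rl*, the ERK gene, higher by 0.32. The adaptor gene *drk* fell from 272 ± 13.4 to 125 ± 4.06 CPM.

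Notch and Hippo pathway genes also rose more often than they fell. For Notch, 21 of 27 genes were higher (77.8%) and 3 lower (11.1%), with a median of 0.59. Targets of the Enhancer of split complex led, with *E(spl)m7-HLH* at 1.26 ± 0.179 CPM at 4 days and 17.0 ± 0.399 CPM at 14 days (log2 fold change 3.00, SE 0.14). *E(spl)mbeta-HLH*, another target, rose from 58.6 ± 6.62 to 202 ± 36.1 CPM. The receptor gene *N* rose from 419 to 691 CPM and the ligand gene *Dl* from 86.1 to 152 CPM, while *neur*, an ubiquitin ligase for the ligands, fell from 21.7 ± 1.31 to 13.3 ± 1.85 CPM. In the Hippo pathway, which restrains the coactivator Yorkie, 16 of 21 genes were higher (76.2%) and 2 lower (9.52%, median 0.36). The kinase gene *wts* (1.08), the atypical myosin gene *d* (1.04) and the Yorkie targets *ex* (0.87) and *Diap1* (0.80) rose most on the log2 scale, and *yki* itself rose by 0.67. *sd* and *hpo* fell, by 0.42 and 0.29.

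JNK signaling genes were divided. Of 19, 9 were higher (47.4%) and 7 lower (36.8%), with a median of 0.09 and a share of falls near that of all genes. The targets *Mmp1* and *Ets21C* fell together. *Mmp1*, a matrix metalloproteinase gene, was at 1097, 1087, 1055 and 1229 CPM at 4 days and 350.4, 306, 349.7 and 328 CPM at 14 days (log2 fold change -1.74, SE 0.10, adjusted p = 7.4e-16). It stayed above control discs at both ages in mean, which had 63.0 CPM at 4 days and 120.3 CPM at 5 days. *Ets21C*, a stress-induced Ets factor gene, fell from 216 ± 37.0 to 66.9 ± 19.6 CPM (SD, n = 4 each). *puc* (*puckered*), the JNK phosphatase gene that JNK itself induces, changed by far less, from 204, 195, 208 and 215 CPM to 183, 169, 153 and 185 CPM (log2 fold change -0.26, SE 0.081, adjusted p = 0.006), although the groups did not overlap. In the opposite direction, *wgn*, a TNF receptor gene, rose from 9.20 ± 1.21 to 31.9 ± 4.02 CPM and *kay*, the Fos gene of AP-1, from 275 ± 44.5 to 575 ± 20.035 CPM. The kinase genes *hep* and *bsk* moved in opposite ways, by 0.28 and -0.37. *cindr*, an adaptor of the actin cortex, rose from 242 ± 7.72 to 501 ± 37.2 CPM. The *scrib* transcript was at 557, 521, 575 and 629.8 CPM at 4 days and at 804, 791, 757 and 893 CPM at 14 days (log2 fold change 0.51, SE 0.058), so that the transcript of the mutant gene was present at both ages.

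The ligands of JAK/STAT signaling fell steeply while the list as a whole did not move one way. All 3 *unpaired* genes, which encode cytokines of this pathway and lie next to each other, fell. *upd1* was at 224, 218, 226 and 266 CPM at 4 days and 28.3, 24.5, 34.7 and 24.1 CPM at 14 days (log2 fold change -3.03, SE 0.11, adjusted p = 4.2e-20), *upd2* went from 59.4 ± 4.24 to 8.59 ± 3.05 CPM and *upd3* from 61.3 ± 2.07 to 6.45 ± 1.74 CPM. The feedback target *Socs36E* fell by less, from 345 ± 34.6 to 216 ± 22.6 CPM, and the receptor gene *dome* from 416 ± 64.6 to 304 ± 16.6 CPM. *zfh2* (1.18) and *chinmo* (0.76) rose. In all 6 of 15 genes were higher and 6 lower (40% each, near the shares of all genes, median 0.08), and *Stat92E* was at 199.5 and 212 CPM with no call (called higher without replicate 2 of the 14-day tumors, 0.12, adjusted p = 0.021).

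Signals that act on the whole animal and their receptors were divided, with 6 of 10 lower (60.0%) and 3 higher (30%) and a median of -0.77. Between 12 and 5 days 4 of these 10 were lower and 3 higher, and the median was 0.23. *Ilp8*, the relaxin-like hormone that delays pupation when discs are damaged, was at 243, 226, 236 and 236 CPM at 4 days and 27.4, 35.2, 53.9 and 26.4 CPM at 14 days, a fall in every old tumor (log2 fold change -2.74, SE 0.26, adjusted p = 1.2e-10). *Pvf1*, a ligand of the PDGF/VEGF receptor, fell from 94.6 ± 3.38 to 39.5 ± 5.66 CPM, whereas *Pvf2* rose from 67.5 ± 2.25 to 113 ± 7.90 CPM. *ImpL2*, which binds insulin-like peptides outside the cell, was at 883, 899, 862 and 914 CPM at 4 days and 609, 224, 680.3 and 252 CPM at 14 days (adjusted p = 0.00028). The old tumors were here split, with replicates 1 and 3 at 609 and 680 CPM and replicates 2 and 4 at 224 and 252 CPM. For *daw*, an activin-like ligand gene with 13.0, 7.32, 35.0 and 11.3 CPM at 14 days, replicate 3 alone stood apart. The rise of *daw* (log2 fold change 1.08, adjusted p = 0.011 by limma) was lost without replicate 3 of the 14-day tumors (0.66, adjusted p = 0.096).

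Genes of the ecdysone response rose more often than they fell. Ecdysone is the steroid that drives molting and metamorphosis. Of 26 genes of the response and of larval timing, 14 were higher (53.8%, against 35.2% of all genes), 5 were lower (19.2%, against 39.7%) and 7 did not pass the test, with a median of 0.38. The early gene *Eip74EF* was at 21.0, 20.4, 27.3 and 27.6 CPM at 4 days and 194, 179, 192 and 205 CPM at 14 days (log2 fold change 2.96, SE 0.10, adjusted p = 2.1e-21). *br* (*broad*), a factor of the pupal fate, rose from 175 ± 17.3 to 817 ± 138 CPM, the receptor gene *EcR* from 103 ± 13.9 to 401 ± 32.0 CPM and *Eip75B* from 66.0 ± 11.0 to 257 ± 33.0 CPM (SD, n = 4 each). *Cyp18a1*, which encodes an enzyme that inactivates ecdysone, rose from 2.54, 2.05, 2.81 and 2.68 CPM to 43.0, 37.5, 59.7 and 51.6 CPM (log2 fold change 3.78). Genes of the later prepupal response were low, with *Hr3* at 0.0135 and 0.0127 CPM (not called) and *Eip93F* rising from 0.0516 to only 0.902 CPM, and *ImpE1* fell from 19.2 ± 2.22 to 6.37 ± 1.10 CPM. *chinmo*, a factor of the early larval stage, was higher together with *br*, at 344 ± 35.6 and 581 ± 61.1 CPM.

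Genes of mitochondrial energy supply fell nearly without exception. Of 64 tested nuclear genes of the respiratory chain and ATP synthase, 61 were lower and none was higher, with a median log2 fold change of -0.93. *Cyt-c-p*, the cytochrome c gene of somatic tissue, was at 208, 222, 218 and 176 CPM at 4 days and 58.9, 59.2, 68.1 and 52.4 CPM at 14 days (log2 fold change -1.77, SE 0.087, adjusted p = 2.8e-17). In the citrate cycle 16 of 18 genes fell and 1 rose (median -0.77). *kdn*, the citrate synthase gene at the entry of the cycle, fell most, from 502, 483, 476 and 612 CPM to 123, 114, 120.3 and 129.9 CPM, and *Acon* (aconitase) fell from 665 ± 33.9 to 271 ± 10.8 CPM, while *Idh* rose from 324 ± 2.66 to 407 ± 13.2 CPM. The 13 protein genes of the mitochondrial genome are listed at 0 in every library, so nothing can be said of them.

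Glycolytic genes rose in 10 of 13 cases and fell in 2, with a median of 0.74. *ImpL3*, which encodes lactate dehydrogenase, was at 56.8, 79.4, 54.0 and 80.2 CPM at 4 days and 1161, 515, 1369.8 and 211 CPM at 14 days (log2 fold change 3.26, SE 0.50, adjusted p = 9.4e-07). All old tumors were above all young ones, but they differed among themselves by more than 6-fold, and replicate 1 and replicate 3 were the higher pair, as for *ImpL2*. *Pfk*, the gene of the committed step, was at 52.4, 59.7, 56.1 and 61.8 CPM and 181, 127, 209 and 116 CPM, *Tpi* rose from 67.3 ± 7.66 to 188 ± 24.1 CPM and *Pgk* from 150.0 ± 9.67 to 362 ± 29.4 CPM (SD, n = 4 each). *PyK*, of the last step, fell from 614 to 523 CPM, and *Hex-C*, a hexokinase gene with 1.62 CPM at 4 days, fell by 1.03 on the log2 scale.

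Most listed genes of ribosome biogenesis, mitochondrial ribosomes, the proteasome and tRNA charging also fell. Of 37 genes of ribosome biogenesis, 34 fell and 2 rose (median -0.95). *mod* (*modulo*), a nucleolar protein gene, was at 807, 802, 798 and 727 CPM at 4 days and 273, 244, 269.6 and 264 CPM at 14 days (log2 fold change -1.57, SE 0.048, adjusted p = 5.8e-22). *Nop60B* fell from 712 ± 24.0 to 266 ± 8.76 CPM and *Nopp140* from 576 ± 18.1 to 205 ± 10.2 CPM, and the 2 exceptions were *Non1*, at 897, 858, 934 and 988 CPM and then 2245, 2349, 2222 and 2399.9 CPM, and *Myc*, at 190.4 and then 225 CPM. Of 73 mitochondrial ribosomal protein genes 67 fell and 1 rose (median -0.69), with *mRpS30* falling most, from 162 ± 3.09 to 60.9 ± 2.31 CPM. All 32 proteasome genes tested fell, within a narrow range from -1.13 for *Prosalpha5* to -0.44 for *Prosalpha7* (median -0.83). Aminoacyl-tRNA synthetase genes fell in 31 of 33 cases and rose in 1 (median -0.63), and *ValRS* went from 208 ± 13.4 to 78.5 ± 10.3 CPM. The cytosolic ribosomal protein genes did not follow, with 34 of 82 lower (41.5%, near the 39.7% of all genes) and 18 higher (22.0%) and a median of -0.08. Their sum was 165631 to 169690 CPM at 4 days and 149360 to 176528 CPM at 14 days.

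Cell cycle genes changed by modest amounts. Of 49, 27 were lower (55.1%, against 39.7% of all genes) and 11 higher (22.4%, against 35.2%), with a median of -0.17. Among the mitotic genes that fell, *Cdk1* went from 158, 153, 148 and 137 CPM to 78.5, 75.023, 84.9 and 70.0 CPM (log2 fold change -0.94, SE 0.05, adjusted p = 1.6e-16), *aurA* from 49.5 ± 1.79 to 27.6 ± 1.57 CPM, *CycB* from 245 ± 11.9 to 168 ± 13.9 CPM and *Cks30A* from 99.6 ± 3.74 to 66.9 ± 2.22 CPM. *stg*, the Cdc25 phosphatase gene that opens mitosis, was by contrast higher, at 233, 216, 226 and 272 CPM and 306, 252, 298 and 334 CPM, with overlapping libraries (log2 fold change 0.33, SE 0.088, adjusted p = 0.0015). Around the start of S phase, *dap*, the Cdk inhibitor gene, rose from 72.9 ± 4.57 to 127 ± 3.00 CPM, *E2f1* from 308 ± 23.1 to 444 ± 22.5 CPM and *CycD* from 54.5 ± 1.41 to 74.7 ± 2.69 CPM, while *PCNA* fell from 288 ± 8.01 to 221 ± 14.549 CPM.

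Heat shock genes had the highest median of all lists. Of 19, 15 rose and 1 fell, with a median log2 fold change of 3.42. The small heat shock gene *Hsp23* was at 37.8, 89.8, 45.8 and 32.3 CPM at 4 days and 989, 1289, 833 and 1638 CPM at 14 days, and *Hsp26* at 49.9, 136, 70.2 and 46.3 CPM and 1065, 1259, 873 and 2079.9 CPM. For both the groups were apart, and replicate 4 was the highest of the old tumors. *Hsp70Aa* rose from 1.86 ± 0.993 to 72.5 ± 33.4 CPM and *Hsp68* from 72.6 ± 41.8 to 1081 ± 726 CPM (SD, n = 4 each), where the *Hsp70* genes are near-identical copies whose single values are uncertain. Chaperones that cells make without stress behaved otherwise, with *Hsc70-4* at 10695 and 9903 CPM, *Hsp83* at 4161 and 3807 CPM (neither called by limma, while edgeR and DESeq2 called *Hsc70-4* lower, with log2 fold changes of -0.12) and *Hsp60A* of the mitochondria lower, from 1146 ± 102 to 796 ± 70.2 CPM. In the endoplasmic reticulum 13 of 20 genes of the unfolded protein response fell (65.0%) and 3 rose (15%, median -0.25), with *Hsc70-3* (BiP) going from 1095 ± 63.6 to 571 ± 39.5 CPM.

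Other stress and nutrient genes moved in both directions. *Thor*, the 4E-BP gene that restrains translation, was at 30.5, 29.8, 29.2 and 27.4 CPM at 4 days and 179.8, 179, 178 and 187 CPM at 14 days (log2 fold change 2.59, SE 0.15, adjusted p = 7.9e-16). The insulin receptor gene *InR* rose from 84.6 ± 5.00 to 191 ± 16.9 CPM and *Sdr*, a secreted decoy of that receptor, from 2.55 ± 0.414 to 35.0 ± 4.23 CPM, in a list of 21 insulin and TOR genes with 9 higher and 7 lower (42.9 and 33.3%, near the shares of all genes, median 0.04). Autophagy genes rose in 16 of 20 cases (80.0%, against 35.2% of all genes, median 0.30) and fell in 1, *Atg101*, which was no longer called without replicate 2 of the 14-day tumors (adjusted p = 0.062), and the rises were led by *ref(2)P*, the p62 gene, from 99.2 ± 1.90 to 186 ± 20.7 CPM. Of 17 apoptosis genes 10 rose (58.8%) and 4 fell (23.5%, median 0.39), with the transcription factor genes *Xrp1* (from 628 ± 37.0 to 1581 ± 116 CPM) and *CG6272* (from 12.8 ± 2.63 to 37.0 ± 4.88 CPM) on top and the death inducers *hid* (-0.71) and *rpr* (-0.35) among those that fell. Immune genes gave 8 higher and 7 lower of 28 (28.6 and 25.0%, both under the shares of all genes, median 0.05), and *Dro*, an antimicrobial peptide gene, fell from 7.46 ± 2.10 to 1.38 ± 1.08 CPM.

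Genes of the extracellular matrix differed by list. On the apical side, the cuticle protein list was split, with 17 of 52 genes higher (32.7%) and 23 lower (44.2%), near the 35.2 and 39.7% of all tested genes. This list also holds *Cpr*, which encodes the NADPH-cytochrome P450 reductase and not a cuticle protein. *Cpr* fell from 187 ± 12.4 to 157 ± 10.7 CPM and is counted in these shares and in the medians. The median log2 fold change was -0.25 over these 52, -0.76 by DESeq2, -0.75 by edgeR and -0.11 without replicate 1 of the 4-day tumors, and it turned to 1.01 over the 16 whose mean reached 5 CPM. *Lcp4*, a larval cuticle gene, fell from 16.4 ± 8.46 to 0.0979 ± 0.0885 CPM. Chitin and apical matrix genes rose in 19 of 36 cases (52.8%, against 35.2% of all genes) and fell in 4 (11.1%, median 0.34), led by the chitinase gene *Cht5*, which was at 3.00, 3.34, 4.89 and 6.07 CPM at 4 days and 104, 118, 123 and 105 CPM at 14 days (log2 fold change 4.45, SE 0.18, adjusted p = 3e-19). The chitin-binding protein gene *obst-B* rose from 27.995 ± 3.29 to 279 ± 35.9 CPM. On the basal side, 10 of 19 genes of the basement membrane and its proteases fell (52.6%) and 6 rose (31.6%, median -0.17). *Timp*, the inhibitor of matrix metalloproteinases, was at 4.52, 6.15, 6.55 and 5.14 CPM and then 58.4, 78.7, 65.8 and 80.6 CPM (log2 fold change 3.45, SE 0.12, adjusted p = 7.2e-21), while both protease genes fell, *Mmp1* as given above and *Mmp2* from 78.1 ± 4.15 to 22.4 ± 2.06 CPM. The collagen IV genes *Col4a1* and *vkg* fell, by 0.86 and 0.65, nidogen (*Ndg*) fell from 19.1 ± 2.05 to 2.45 ± 0.0777 CPM, and the laminin genes *LanA* (1.16) and *LanB1* (0.72) rose on the log2 scale. Hemocyte and fat body markers, cells that also make collagen IV, fell in the same libraries as given above, and their part was not tested.

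Junction and polarity genes moved less. Of 18 genes of apical-basal polarity and adherens junctions 10 rose (55.6%) and 7 fell (38.9%, median 0.12), from *ed* (from 444 ± 38.5 to 727 ± 39.976 CPM) to *shg*, the E-cadherin gene (from 734 ± 35.0 to 486 ± 24.3 CPM). The partner of *scrib*, *l(2)gl*, fell from 787 ± 16.9 to 559 ± 25.9 CPM and *dlg1* rose from 232 ± 9.91 to 266 ± 15.8 CPM. Septate junction genes rose in 13 of 23 cases (56.5%) and fell in 5 (21.7%, median 0.13), with *pck* on top (from 216 ± 20.7 to 391 ± 4.38 CPM). Among 15 integrin and focal adhesion genes 7 rose (46.7%) and 5 fell (33.3%, median 0.07), and *Pax* (paxillin) went from 576 ± 20.4 to 265 ± 5.12 CPM.

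Detoxification genes were called at shares near or under those of all tested genes (35.2% higher and 39.7% lower). *GstT4* was at 13.9, 12.8, 14.7 and 11.5 CPM at 4 days and 143, 146, 136 and 139.8 CPM at 14 days (log2 fold change 3.33, SE 0.082), while *GstD3* fell from 78.9 ± 5.40 to 12.5 ± 3.22 CPM. Of 29 glutathione S-transferase genes 8 rose (27.6%) and 10 fell (34.5%, median -0.05), and of 63 genes in the cytochrome P450 list 15 rose (23.8%) and 26 fell (41.3%). This list also holds *Cyp1*, which encodes a cyclophilin and not a P450. *Cyp1* fell from 1812 ± 113 to 725 ± 25.4 CPM and is counted in these shares and in the medians. The median of the 63 was -0.24, -0.74 by DESeq2 and -0.73 by edgeR, and it turned to 0.82 over the 17 whose mean reached 5 CPM.

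Genes of dosage compensation and sex determination rose as well, all 4 of them (median 1.18). The *roX1* RNA, which coats the male X chromosome, was at 240.1, 241, 194 and 212 CPM at 4 days and 991, 1031, 663 and 988 CPM at 14 days (log2 fold change 2.03, SE 0.42, adjusted p = 9.2e-05). *roX2* rose from 14.7 ± 3.14 to 39.9 ± 10.5 CPM, *msl-2*, a subunit of the male complex, from 49.4 ± 4.66 to 99.9 ± 17.2 CPM and *Sxl*, the switch gene of female fate, from 176 ± 6.69 to 260.4 ± 6.29 CPM. Beside this, the X chromosome had 39.9% of its 1605 tested genes higher and 35.1% lower, against 33.2 to 35.0% higher and 40.2 to 41.3% lower on the large arms 2L, 2R, 3L and 3R. The median log2 fold change was 0.02 for the X and -0.06 to -0.03 for those arms. On chromosome 4, 45 of 81 tested genes rose (55.6%). The share of male larvae in the libraries cannot be told apart from a change in expression.

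Genes that rose were longer than genes that fell. The median exon length was 2579 bases for genes that rose, 1822 for genes that fell and 2059 for all tested genes. Among the fifth of genes with the shortest exon length, 22.3% rose and 47.9% fell, and among the fifth with the longest, 50.0% rose and 28.2% fell. By type of gene, 145 of 319 noncoding RNA genes rose and 39 fell, with a median of 0.24, whereas none of 50 snoRNA genes rose and 23 fell.

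A second pair of ages was compared without any of the 8 libraries used so far, with the spread estimated in the same fit. Between 12 and 5 days 2988 genes were higher (31.0%) and 3275 lower (34%). Of the 3396 genes that rose between the ends, 2667 were also higher at 12 than at 5 days and 18 were lower. These shared genes were 78.5% of the former and 89.3% of the latter list. Of the 3824 genes that fell, 2929 were also lower and 21 were higher, which was 76.6% and 89.4% of the respective lists. Among the 870 genes that rose at least 2-fold the shared part was 97.1%, and among the 938 that fell as much it was 89.0%. Among the 121 genes chosen by name, *ImpL2*, *ImpE1* and *Him* were lower at 14 than at 4 days, with log2 fold changes of -1.18, -1.46 and -0.42, but had values of 0.41, 0.62 and 0.21 between 12 and 5 days, of which only that of *ImpE1* was called (adjusted p = 0.045). Among the gene lists, the medians of the systemic signals, cytosolic ribosomal proteins, basement membrane, integrin, septate junction, cuticle, immune and salivary gland lists had opposite signs in the 2 pairs of ages.

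Tumors of the ages between lay between the ends in the median. For the 870 genes that rose at least 2-fold, tumors of 5, 6, 8, 10 and 12 days had covered a median of 18.5, 32.5, 59.0, 80.3 and 90.5% of the final log2 change. The 938 genes that fell as much had covered 23.1, 56.7, 75.3, 84.2 and 97.4% at those ages. *kek1* was at 17.8, 32.7, 74.8, 98.1 and 121 CPM in this order of ages, and *dac* at 0.508, 1.90, 17.2, 37.9 and 36.7 CPM. Gut genes did not fall evenly. *Jon65Aiv* had means of 0.353 CPM at 8 days and 94.1 CPM at 10 days, and the summed gut list reached 612 CPM in 1 of the 4 libraries of 10 days against 12.4 CPM in the lowest of them. Heat shock genes were not ordered by age either. Their median difference from 4 days was 0.68 at 6 days, -0.55 at 8 days and 2.24 at 10 days, and *Hsp26* had a mean of 35.2 CPM at 8 days and 594 CPM at 10 days. Fat body genes varied widely between replicates of 8 days, from 84.4 to 2786 CPM in sum.

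**Figure D5:**
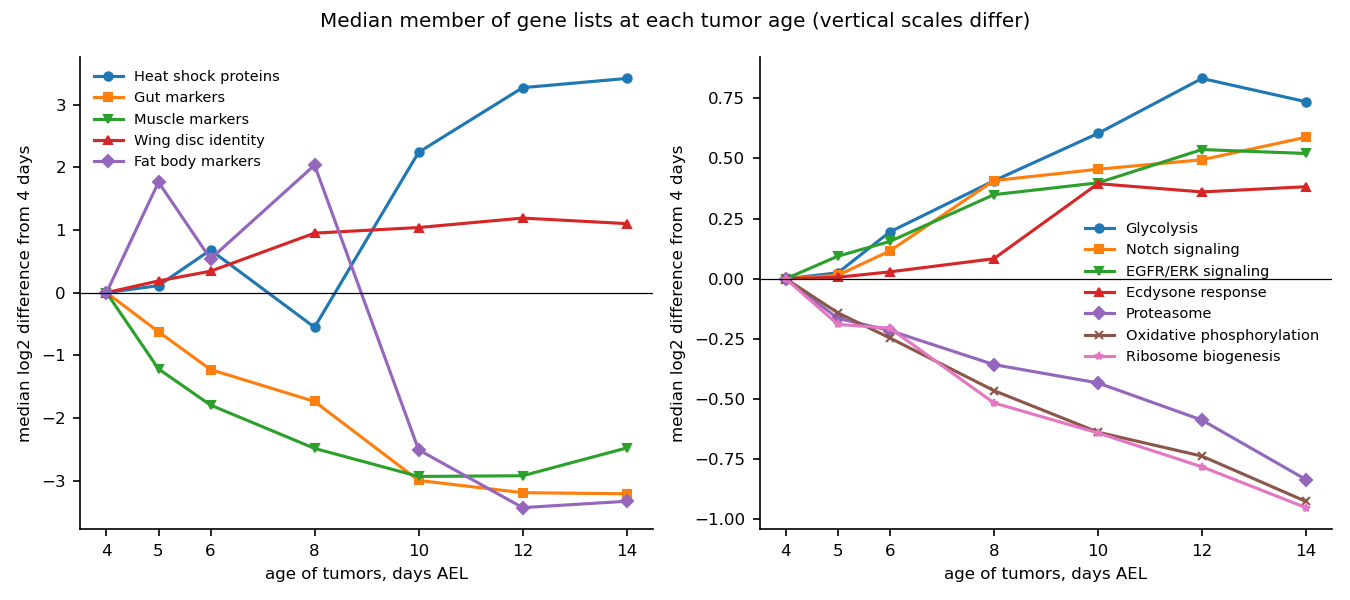
Median difference from the 4-day tumors, on log2(CPM + 1), of the tested members of 12 gene lists at each age of the tumors (days AEL), as differences of group means, with different vertical scales in the 2 panels. Heat shock genes dip to -0.55 at 8 days before they reach 3.42 at 14 days, whereas the median of the respiratory chain genes falls at each age to -0.93.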

How the data were processed

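Total RNA of wing imaginal discs was sequenced as 150 bp paired-end reads. According to the study's methods, the authors mapped reads to BDGP6 with STAR 2.5.4a (maximum intron 100000) and counted them per gene with featureCounts (Subread 1.32.2, default setting, which does not use strand). The deposited values are CPM that the authors made from the counts with edgeR 3.24.3, after a scaling of each library. In the libraries whose values sum to slightly over 1e6, the deposited column was recorded as a signal, made by the authors in the same way, and was analysed as CPM. Each value was a whole multiple of the value of 1 read (tolerance 0.01 reads), so whole reads were recovered for 100% of the values, and the count tests edgeR and DESeq2 ran on them as alternatives.

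Genes were kept by filterByExpr on these reads. limma 3.58.1 (R 4.3.3, intensity trend, two-sided) was fitted to log2(CPM + 1) of all 34 libraries as 9 group means, with 25 residual degrees of freedom and Benjamini-Hochberg adjustment over 9637 genes. The replicates are biological replicates according to the study, with no more said of their origin, so p-values measure the spread between these libraries. The labels give no batch or date. Data were simulated for the 14 against 4 day comparison with 9637 genes. There limma recovered 96 of 100 genes changed by 1 and 100 of 100 changed by 2 on the log2 scale. Of its 226 calls, 30 were false calls among 9437 unchanged genes, 22 of them in genes under 5 CPM. This was a larger share of false calls than the limit on the adjusted p allows for. A limma fit of the 8 libraries alone made 4 false calls among 195, with 92 and 99 of 100 changed genes recovered. For edgeR, 6 of 204 calls were false, with 98 and 100 of 100 recovered. The simulation left 9437 of its 9637 genes unchanged, whereas 74.9% of tested genes were called in the data. Its spread followed a trend over expression and was not set gene by gene. These shares of false calls are therefore no estimate for the real calls.

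Genes named with values were the 12 largest rises and falls among called genes that averaged 10 CPM or more at one age and whose libraries do not overlap, the 6 largest gains and losses in CPM, the extremes and other members of gene lists given with the counts of their list, genes at most at 3 reads at one age and at least 10 CPM at the other, and genes the study names. The comparison, the gene lists and these choices were made with earlier results of these data known. Lists are described by counts and medians, with no set test. List members not matched in the values were not used here. Positions and exon lengths came from an Ensembl annotation of BDGP6 that matched 99.1% of 17641 symbols and need not be the release used by the authors. Alternatives were edgeR 4.0.16, DESeq2 1.42.0 and its size factors, library size alone, pseudocounts of 0.1 and 5, no filter, a 5 CPM minimum of the mean, fits of the 8 or the 27 tumor libraries, a replicate block, a test against 1 log2 unit and each library left out.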

Additional observations from a re-analysis of the deposited data

Results flagged for a closer look

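Of 405 sets of 4 libraries of one age (summed gene lists and named genes), 35 held a library far from the other 3 by Dixon's criterion (8.64%), where chance alone gives about 1 in 20. Replicate 4 of the 4-day tumors, the library with the low gut sum, accounted for 17 of them. It was the highest for aminoacyl-tRNA synthetases (5267 CPM in sum), the citrate cycle (5989.8 CPM, the others at 5366 to 5399.8), integrins and focal adhesion (4033), chitin and apical matrix (9706), *alphaTub84B* (10987), *betaTub56D* (7817), *blw* (3393), *Hsp60A* (1298), *Strn-Mlck* (69.7), *Ets21C* (271 CPM, the others at 195 to 201), *kay* (341), *upd1* (266), *inv* (43.6) and *msl-2* (56.3), and the lowest for the cytochrome P450 list (1963), *mod* (727) and *bsk* (62.9). Most of that P450 sum came from *Cyp1*, a cyclophilin gene in the list, at 1643 CPM in this replicate and 1851 to 1888 CPM in the others. The sum is thus no measure of P450 genes. Replicate 2 of the 4-day tumors was the highest for neuron and glia markers (62.5 CPM) and *Pvf2* (70.9 CPM) and the lowest for *CR42862* (1379 CPM), *InR* (77.1 CPM) and *Raf* (55.4 CPM).

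At 14 days, replicate 2 was the lowest for the ecdysone list (3306 CPM, the others at 3962 to 4079), *CG14304* (24.5 CPM), *drk* (119 CPM), *Egfr* (448 CPM) and *en* (44.3 CPM, the others at 70.6 to 73.0) and the highest for *Rm62* (7183 CPM). Replicate 1 was the highest for apoptosis genes (2918 CPM), and replicate 4 for *wgn* (37.9 CPM), *Thor* (187 CPM) and *yki* (139.5 CPM), with *CycD* lowest there (70.6 CPM). Replicate 3 was the lowest for *roX1*, at 663 CPM against 988 to 1031 CPM, and for *Col4a1*, at 144 CPM against 222 to 238 CPM. Causes of these differences were not tested.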

How the results depend on the processing

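Counts of genes between the ends and between 12 and 5 days stayed within 1.5 times their values under every alternative but the test against 1 log2 unit, which called 543 higher and 468 lower at 14 days and 313 higher and 133 lower at 12 days. Each library left out in turn gave 3300 to 3371 higher and 3643 to 3782 lower genes at 14 days, and 2842 to 2944 and 3045 to 3178 at 12 days. No gene called at 14 days was called in the other direction under any alternative. With the replicate number as a block, 3381 genes were higher and 3812 lower. Same-numbered libraries of the 2 ages did not deviate together (correlations -0.13 to 0.063). These values cannot show whether same-numbered libraries shared a preparation, which the labels do not state. Scaling by library size alone gave 3582 and 3631 genes. Among 208 genes given with values, the call was lost for *daw* (0.66 without replicate 3 of the 14-day tumors), *Him*, *Atg101*, *Jon99Fi* and *wg* in 11 fits in all, and gained for *Fbp1*, *Lsp2*, *Hsc70-4*, *Stat92E*, *pio* and *Sgs8* in 18. The sign turned in 14 fits of 4 genes that were not called in any fit. With 1 library left out, *Sgs3* (-0.064) ranged from -0.092 to 0.017, *Hr3* (-0.0011) from -0.019 to 0.018, *ap* (0.0093) from -0.045 to 0.075 and *Dsor1* (0.0066) from -0.031 to 0.043, and *Dsor1* was at -0.00016 by DESeq2, -0.0019 with its size factors and -0.000045 by edgeR. List medians moved by more than the spread between replicates in 70 values over 22 lists, among them those of cuticle genes (-0.25) to -0.11 without replicate 1 of the 4-day tumors and to -0.087 with no filter. With a 5 CPM minimum of the mean, the median of the P450 list turned to 0.82 and that of the cuticle list to 1.01, over 17 and 16 genes. The 17 include the cyclophilin gene *Cyp1* and the 16 include the P450 reductase gene *Cpr*. Depth limits statements on genes near 3 reads. No promoter motifs were searched.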
